A study of Mus musculus with 12 samples.

Results

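The genes described here code for the proteins of the cytosolic ribosome and for the factors that start translation. They were chosen by symbol: genes named Rpl or Rps with a number, Rplp0, Rplp2 and Rpsa (45 ribosomal protein genes), and genes named Eif with a number (42 Eif genes). Together they were 87 of the 12394 genes measured. The symbol rule uses no measured values, but it was set with earlier results of these data known. Each gene was read by the probe set of highest mean that lists that gene alone, so ribosomal protein genes listed only together with pseudogenes or other genes, such as Rpl3, Rpl5 and Rps13, were not measured in this way. No member was left out for a low value.

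RNA came from the CA1 subfield of the mouse hippocampus, a layer of pyramidal neurons known for its sensitivity to a stop in blood flow. Wild-type mice and mice labelled SUMO-KD, a transgenic knockdown of the SUMO modifier, had either sham surgery or 10 min of forebrain ischemia, and tissue was taken at 3 h of reperfusion. The 4 groups (wild-type sham, wild-type ischemia, SUMO-KD sham, SUMO-KD ischemia) have 3 Affymetrix arrays each, and each array carried RNA pooled from 2 brains, so the spread between arrays is smaller than that between animals would be. The sources used here do not state the promoter of the transgene, the cells that express it, or the age, sex and strain of the animals. By the labels the 12 samples are biological replicates. In bulk tissue of this kind, fewer cells of a type and less RNA per cell cannot be told apart.

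The 40S and 60S subunits are built from ribosomal proteins and ribosomal RNA, and cells that grow or recover make these proteins in step. Initiation starts when eIF2 carries the initiator methionyl tRNA to the small subunit and eIF4F brings the mRNA cap. Phosphorylation of eIF2 by stress kinases, which locks its exchange factor eIF2B, and capture of the cap-binding protein eIF4E by the 4E-binding proteins are the best known brakes on this step. In brain, reperfusion after ischemia is known for a long arrest of protein synthesis with phosphorylated eIF2.

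Many mRNAs of ribosomal proteins begin with an unbroken run of C and T letters, the 5′ terminal oligopyrimidine tract, which ties their translation to mTOR and LARP1. Promoter sequences from RefSeq (mouse build GRCm38.p6) were found for 39 of the 45 ribosomal protein genes and 34 of the 42 Eif genes. The 15 bases on each side of the annotated start are shown for 4 ribosomal protein genes with bright probe sets, for the called Rpl12 and Rps25 and for the Eif genes called in both genotypes, where they had an entry, to set the start of typical ribosomal protein genes beside those of the genes that changed. Capitals mark the longest run of at least 5 C or T letters.
Rpl38 (chr11:114668565-114668594, plus strand): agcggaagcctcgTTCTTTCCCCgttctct
Rps10 (chr17:27635230-27635259, minus strand): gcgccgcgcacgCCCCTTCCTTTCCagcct
Rpl13a (chr7:45128731-45128760, minus strand): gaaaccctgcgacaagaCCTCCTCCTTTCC
Rps28 (chr17:33824548-33824577, minus strand): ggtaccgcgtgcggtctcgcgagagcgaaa
Rpl12 (chr2:32961697-32961726, plus strand): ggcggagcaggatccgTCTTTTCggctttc
Rps25 (chr9:44407699-44407728, plus strand): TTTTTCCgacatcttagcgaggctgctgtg
Eif2b2 (chr12:85219466-85219495, plus strand): tttcaccgagcggaagttgaCCTCTCTCgg
Eif2s2 (chr2:154892892-154892921, minus strand): cacgtaaggttggctttactgtacgcctgc
Eif4e2 (chr1:87213896-87213925, plus strand): ctgagcgcctcgccagccaaccggaagtag
Eif5 (chr12:111538086-111538115, plus strand): gagatcgacgtgcatgcgagccaatgacaa
A run of 7 or more C or T letters on the sense strand lay in this window in 21 of 39 ribosomal protein genes (53.8%), in 8 of 34 Eif genes (23.5%) and in 4978 of all 27025 promoters in the table (18.4%). The letters CTTTC on the sense strand, which can lie inside such a run, were found in 11 (28.2%), 3 (8.8%) and 1077 (4.0%) of them, and in 28.2%, 11.8% and 7.4% when either strand was searched. Over the full 300 bases of each promoter, the letters CCGGAAGT on either strand stood in 10 ribosomal protein genes (25.6%), 6 Eif genes (17.6%) and 4.0% of all promoters. Rps28 and the 3 Eif genes Eif2s2, Eif4e2 and Eif5 had no run of 5 in this window, while Rpl38, Rps10 and Rpl13a had runs of 10, 13 and 13 letters. These matches describe letters and are not binding sites.

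On all arrays the deposited intensities share nearly the same trimmed mean, array medians lay between 141.02 and 162.27, and between 22.45% and 28.57% of probe sets were under 32, the value added before taking log2. Sumo3, a SUMO gene with a probe set of its own, lay between 2247 and 2467 on the wild-type sham arrays and between 1337 and 1689 on the SUMO-KD sham arrays (log2 difference -0.58, adjusted p = 0.0096), and its arrays did not overlap between genotypes after ischemia either. Of the CA1 pyramidal markers, 2 of 5 were measured, Wfs1 and Pou3f1, and their summed intensity ran from 3605 to 5241 in wild-type sham, 2035 to 2927 in wild-type ischemia, 2093 to 2704 in SUMO-KD sham and 1855 to 2316 in SUMO-KD ischemia. The choroid plexus list, led by Ttr, was bright in all groups (sums of 14920 to 25360), and the 5 microglial markers summed to 4090 to 4508 in sham and 2997 to 3389 after ischemia, with 3 of 5 called lower in each genotype. The 3 measured dentate granule cell markers summed to 2146 to 3532 in sham and 1738 to 1838 after ischemia in wild-type. In SUMO-KD they summed to 2790 to 3904 in sham and 1620 to 1946 after ischemia. Of the 3, 1 was called lower in each genotype and 1 was called higher in wild-type. Of 5 interneuron markers, 3 were called lower in wild-type and none in SUMO-KD, and their sums overlapped between sham and ischemia in both genotypes. With ischemia, the shares of all genes called by limma at an adjusted p under 0.05 were 9.59% higher and 8.88% lower in wild-type. In SUMO-KD they were 6.08% and 4.62%. The array's 5′ probe set for 18S ribosomal RNA, the RNA of the small subunit, read between 4194 and 6528 on the 6 sham arrays, between 1275 and 1660 on 5 ischemia arrays and 4127 on SUMO-KD ischemia replicate 2, which stands apart from its group. The 5 astrocyte markers summed to 9892 to 11590 in wild-type sham and 12130 to 13990 in SUMO-KD sham. After ischemia the genotypes overlapped. Of the 5, 2 were called higher in SUMO-KD sham, where 2.10% of all genes were called, and 1 rose with ischemia in wild-type. The 3 measured neutrophil markers summed to 61.7 to 137 in SUMO-KD sham and 220.7 to 1177 after ischemia, with 1 called higher. In wild-type their groups overlapped. The part of these shifts in the changes below was not tested.

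Ribosomal protein mRNAs changed little at 3 h of reperfusion. In wild-type mice 2 of the 45 genes rose with ischemia, Rpl12 and Rps25, and none was called lower, against a background of 18.5% of all genes called (9.59% higher, 8.88% lower) by limma at an adjusted p under 0.05. Without adjustment, 4 genes had p under 0.05 in the higher direction and 1 in the lower, where 31.3% of all genes had such a p in either direction. The median log2 change was 0.019, with the middle range of genes from -0.036 to 0.092, beside a median of -0.035 over all genes and -0.094 over the 2405 genes with a mean intensity of at least 1000. For 39 of the 45 genes the 95% interval of the change stayed within 0.5 of 0 on the log2 scale. The exceptions were Rpl12, Rps25, Rpl22, Rpl3l, Rps26 and Rps27. The 39 include Rpl39l, which read under 32 on all arrays but 1, so that the value added before log2 compresses its change.

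In SUMO-KD mice 1 gene rose, Rpl12, and none was called lower, against 10.7% of all genes called (6.08% higher, 4.62% lower). Unadjusted p was under 0.05 for 3 genes, all higher, where 24.1% of all genes had such a p in either direction. The count for SUMO-KD rests on single libraries: no ribosomal protein gene was called when any SUMO-KD sham array, or the second or the third SUMO-KD ischemia array, was left out, and 2 were called without SUMO-KD ischemia replicate 1. The median change was 0.046, against -0.022 over all genes, and 41 of 45 genes had a 95% interval within 0.5 of 0. Of the 45 genes, 35 lay above 0 in SUMO-KD and 24 in wild-type, where 5670 and 5470 of all 12394 genes did so. These counts can lean on single arrays. The mean log2 deviation of the class was -0.12 on SUMO-KD sham replicate 2, beside -0.00086 and 0.0051 on replicates 1 and 3. On wild-type sham replicate 2 it was -0.097. In wild-type the ischemia arrays lay wholly above the sham arrays for 4 genes and wholly below for 2, where 15.6% and 19.5% of all genes did so, and in SUMO-KD for 5 and 0, where 13.9% and 15.9% did.

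Summed over the 45 probe sets, ribosomal protein intensity ran from 232374 to 260480 on the wild-type sham arrays, 243878 to 250068 after ischemia in wild-type, 229707 to 258595 on the SUMO-KD sham arrays and 257217 to 257470 after ischemia in SUMO-KD. The groups overlapped in wild-type, and in SUMO-KD the ischemia arrays lay inside the range of the sham arrays. The lowest sum in each sham group came from its replicate 2.

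The brightest probe sets of the class belonged to Rps29, Rpl38, Rps28, Rps10 and Rpl13a, proteins of the small subunit (Rps) and the large subunit (Rpl). Rps29 read 17811, 14252 and 17365 on the wild-type sham arrays, 17442, 16498 and 14013 after ischemia in wild-type, 16877, 15648 and 15670 on the SUMO-KD sham arrays and 17198, 15839 and 15974 after ischemia in SUMO-KD. The 4 groups overlapped, and the change was -0.043 (SE 0.11, adjusted p = 0.845) in wild-type and 0.024 (SE 0.11, adjusted p = 0.934) in SUMO-KD. Rpl38, a protein known for its part in the translation of Hox mRNAs, read 14923, 13327 and 15420 on the wild-type sham arrays, 13434, 13635 and 12856 after ischemia in wild-type, 15064, 12897 and 14674 on the SUMO-KD sham arrays and 14807, 14694 and 14806 after ischemia in SUMO-KD. Its ischemia arrays in SUMO-KD lay close together, at 14769 ± 65.1 (mean ± SD, n = 3), inside the range of the sham arrays. Rps28, Rps10 and Rpl13a had wild-type changes of -0.036, 0.092 and -0.021 and SUMO-KD changes of 0.10, 0.020 and 0.054 on the log2 scale, with adjusted p of at least 0.519. Other probe sets of Rps10 gave the same picture where bright: the 4 brightest of its 6 probe sets changed by between 0.0048 and 0.092 in wild-type. The P-stalk genes, whose proteins call in the translation factors, changed by -0.022 and 0.081 in wild-type and by 0.048 and 0.088 in SUMO-KD.

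**Figure D1:**
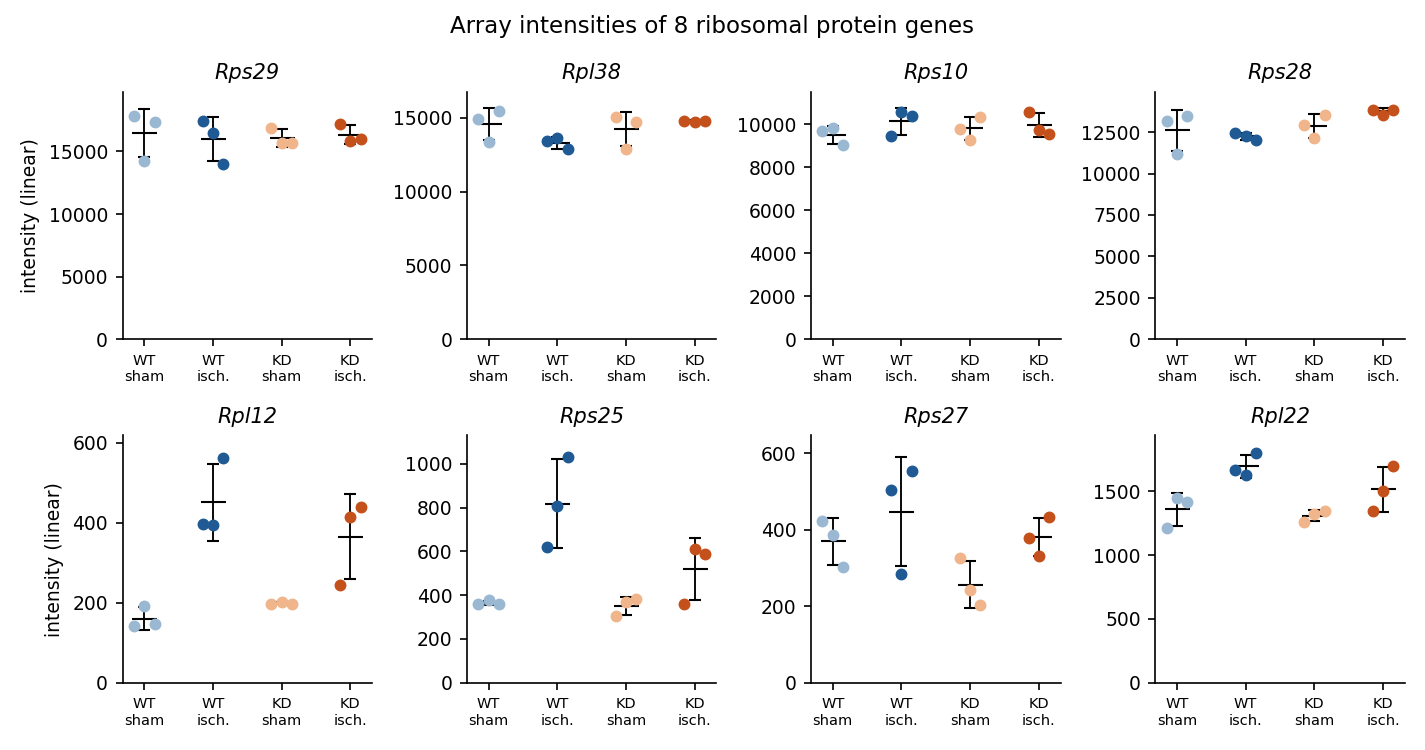
Intensity (linear scale from 0) of the used probe set of 8 ribosomal protein genes on each array (points), with the mean and SD of 3 arrays per group (bars); WT is wild-type and KD is SUMO-KD. The top row holds 4 of the 5 brightest probe sets, whose groups mostly overlap, and the bottom row the genes with the largest mean response to ischemia above background, of which Rpl12 rose from 161 to 451 in wild-type.

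Rpl12, a large-subunit protein near the base of the stalk, read 142, 193 and 147 on the wild-type sham arrays, 396, 395 and 562 after ischemia in wild-type, 197, 202 and 198 on the SUMO-KD sham arrays and 244, 414 and 439 after ischemia in SUMO-KD. All ischemia arrays lay above the sham arrays of the same genotype, with SUMO-KD ischemia replicate 1 the lowest of them. The log2 change was 1.32 (SE 0.20, adjusted p = 0.000974) in wild-type and 0.74 (SE 0.20, adjusted p = 0.0341) in SUMO-KD, and the difference between these responses was -0.57 (95% interval -1.19 to 0.0398, adjusted p = 0.818). Rps25, a small-subunit protein used by viral internal entry sites, read 359, 377 and 358 on the wild-type sham arrays, 621, 806 and 1029.7 after ischemia in wild-type, 305, 369 and 381 on the SUMO-KD sham arrays and 359, 611 and 590.0 after ischemia in SUMO-KD. The wild-type groups were clear of each other, while SUMO-KD ischemia replicate 1 fell inside the sham range. Its log2 change was 1.07 (SE 0.20, adjusted p = 0.00377) in wild-type and 0.50 (SE 0.20, adjusted p = 0.155) in SUMO-KD. Without SUMO-KD ischemia replicate 1 the SUMO-KD change was 0.73 (adjusted p = 0.0244).

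These 2 calls rest on probe sets with mean intensities of 294 and 514, below the class median of 5513. The median over all genes was 233. The used probe sets of Eif4ebp1 and Eif4e2, Eif genes described below, had means of 279 and 291. Brighter probe sets that list Rpl12 or Rps25 together with predicted genes gave smaller changes: 2 that list Rpl12 changed by 0.091 and 0.089 in wild-type (SE 0.18 and 0.13) and by 0.35 and 0.0035 in SUMO-KD, and 1 that lists Rps25 changed by -0.074 (SE 0.12) and 0.049. Across the 96 probe sets that list a ribosomal protein gene alone, the wild-type change had a median of 0.30 in the 14 with a mean intensity from 100 to 1000 (13 above 0), 0.10 in the 15 under 100 (12 above 0) and -0.00023 in the 67 of at least 1000 (33 above 0). This split by brightness was chosen after its values were seen.

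**Figure D2:**
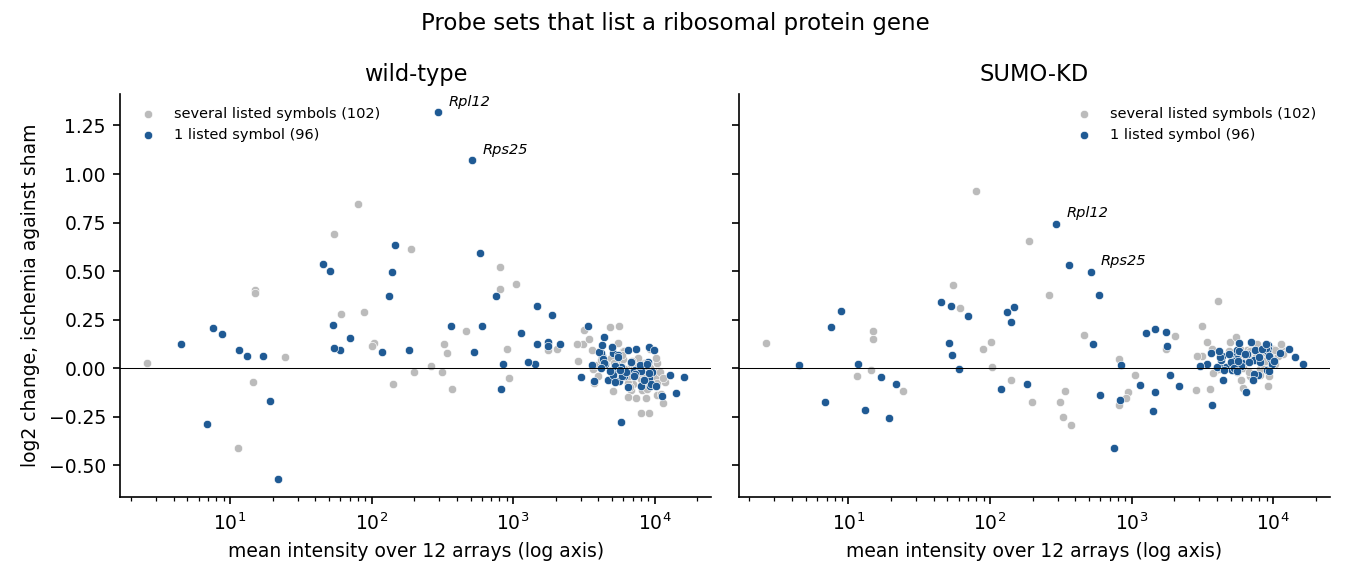
Log2 change with ischemia in wild-type (left) and SUMO-KD (right) of every probe set that lists a ribosomal protein gene, against its mean intensity over 12 arrays on a log axis; blue points list 1 gene symbol and grey points several. The 67 bright single-symbol probe sets (mean of at least 1000) lie between -0.28 and 0.32 in wild-type, and Rpl12 and Rps25 have the highest changes in the wild-type panel. In the SUMO-KD panel the highest point, at 0.91, is a dim probe set that lists Rpl3 with predicted genes, above Rpl12 at 0.74.

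Of the other members with the largest mean response, Rps27 read 422, 385 and 302 on the wild-type sham arrays, 503, 285 and 553 after ischemia in wild-type, 325, 242 and 202 on the SUMO-KD sham arrays and 379, 331 and 432 after ischemia in SUMO-KD. In SUMO-KD its ischemia arrays were above its sham arrays with a change of 0.53 (adjusted p = 0.179), and in wild-type the groups overlapped. A brighter probe set that lists Rps27 with Rps27rt (mean 5869) changed by 0.066 in wild-type and 0.097 in SUMO-KD. Rpl22, whose close copy Rpl22l1 lies outside the symbol rule, rose from 1358 ± 129 to 1697 ± 90.3 in mean intensity (SD, n = 3) in wild-type without passing the test at 0.32 (adjusted p = 0.0530), and its second probe set changed by -0.11. Rpl3l, a form known from muscle, stayed between 1.01 and 20.02, below the value added before log2, and has no usable level. Rpl39l, a close copy of Rpl39, read between 6.78 and 39.3 and likewise has no usable level.

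No ribosomal protein gene was called between SUMO-KD and wild-type mice in sham (2.10% of all genes called) or after ischemia (1.56%), or in the difference between the ischemia responses (0.0161%, 2 genes). Unadjusted p was under 0.05 for 1, 3 and 2 of the 45 genes in these 3 tests, where 14.2%, 15.5% and 6.2% of all genes had such a p. The 95% interval of the genotype difference lay within 0.5 of 0 for 42 genes in sham and 37 after ischemia. After ischemia the SUMO-KD arrays lay wholly above the wild-type arrays for 10 of 45 genes and wholly below for 1, where 11.3% and 8.90% of all genes did so. Of the 2405 genes with a mean intensity of at least 1000, 436 lay wholly above and 214 wholly below. Of the 45 genes, 35 are that bright.

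The smallest p in sham were those of Rpl11 (0.25 (adjusted p = 0.280)), a protein that binds Mdm2, of Rps6 (0.20 (adjusted p = 0.356)), the substrate of the S6 kinases, and of Rps27 (-0.49 (adjusted p = 0.367)). After ischemia they were those of Rps25 (-0.63 (adjusted p = 0.163)), Rps26 (0.32 (adjusted p = 0.217)) and Rpl37 (-0.27 (adjusted p = 0.290)). Rps26 read 6189, 5703 and 6246 on the wild-type sham arrays, 5109, 4522 and 5322 after ischemia in wild-type, 6236, 4845 and 6556 on the SUMO-KD sham arrays and 6218, 6053 and 6319.5 after ischemia in SUMO-KD. The wild-type ischemia arrays are the low ones, clear of the other arrays except SUMO-KD sham replicate 2, and the difference between responses was 0.37 (95% interval 0.0106 to 0.723, adjusted p = 0.796). On its used probe set Rps6 went the other way, from 549 to 644 in wild-type and from 635 to 575 in SUMO-KD, with a difference between responses of -0.36 (adjusted p = 0.765). The brightest probe set that lists Rps6 with a pseudogene (mean 11350) changed by -0.052 in wild-type and 0.125 in SUMO-KD. The next (mean 10260) changed by 0.054 and 0.092. Dimmer ones that list both were mixed, and that with a mean of 814 changed by 0.52 and -0.19.

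Several Eif genes rose after ischemia, led by Eif4ebp1, Eif4e2 and Eif5. In wild-type mice 9 of 42 genes were called higher (Eif4ebp1, Eif4e2, Eif5, Eif2s2, Eif3a, Eif1a, Eif6, Eif2b2 and Eif2ak4) and 2 lower (Eif1b and Eif2ak1), where 9.59% and 8.88% of all genes were. In SUMO-KD mice 7 were called higher (Eif4ebp1, Eif4e2, Eif2b2, Eif5, Eif2s2, Eif6 and Eif2ak3), where 6.08% of all genes were, and none lower, where 4.62% were. By limma without adjustment, p was under 0.05 for 14 genes in the higher and 4 in the lower direction in wild-type, and for 8 and 0 in SUMO-KD. Such a p was found for 31.3% of all genes in wild-type and 24.1% in SUMO-KD, both directions together. The ischemia arrays lay wholly above the sham arrays for 13 Eif genes and wholly below for 5 in wild-type, where 15.6% and 19.5% of all genes did so. The counts were again 13 and 5 in SUMO-KD, where 13.9% and 15.9% of all genes did so. The median change of the class was 0.029 in wild-type and 0.082 in SUMO-KD beside -0.035 and -0.022 over all genes. The 6 genes Eif2b2, Eif2s2, Eif4e2, Eif4ebp1, Eif5 and Eif6 were called in both genotypes.

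These counts depend on single libraries. In wild-type the 9 higher calls became 5 without wild-type sham replicate 1, without wild-type sham replicate 2 or without wild-type ischemia replicate 1. The 2 lower calls became 1 without wild-type sham replicate 1 or 3, and 0 without replicate 2 of the wild-type sham group or replicate 3 of wild-type ischemia. Of the 7 higher calls in SUMO-KD, 3 were left when replicate 1 or 2 of the sham group or replicate 2 of the ischemia group was omitted, and 2 when replicate 3 of the ischemia group was. Centring each array on its median left 4 of the SUMO-KD calls.

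**Figure D3:**
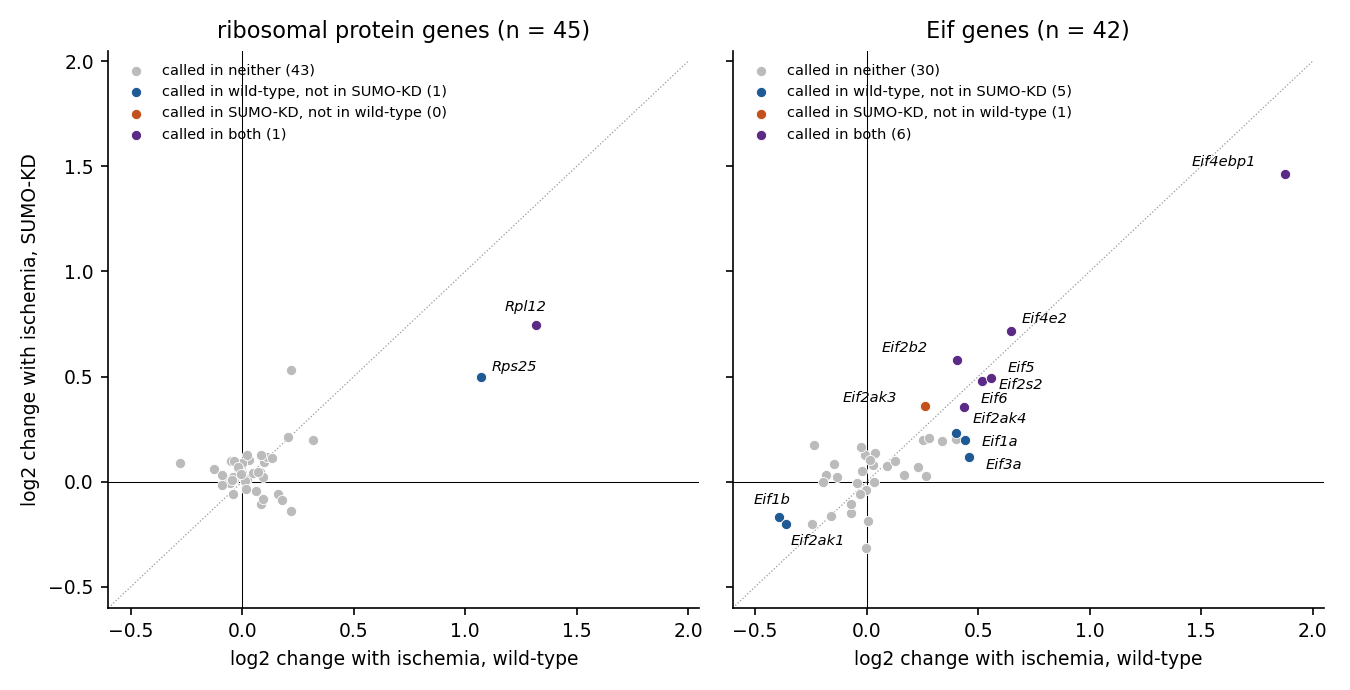
Log2 change with ischemia in wild-type (horizontal) against SUMO-KD (vertical) for the 45 ribosomal protein genes (left) and the 42 Eif genes (right), coloured by the calls at adjusted p under 0.05; the dotted line marks equal change. Most ribosomal protein genes sit close to 0 on both axes, and 12 Eif genes are called in at least 1 genotype, with Eif4ebp1 at 1.88 and 1.46.

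Among the proteins that hold eIF4E, Eif4ebp1, coding for the mTOR target 4E-BP1 that competes with eIF4G for eIF4E, had the largest change of all members. It read 108, 106 and 95.9 on the wild-type sham arrays, 607, 321 and 509 after ischemia in wild-type, 95.6, 126 and 137 on the SUMO-KD sham arrays and 219, 614 and 407 after ischemia in SUMO-KD. Every ischemia array lay above every sham array, with a wide spread after ischemia in both genotypes. The log2 change was 1.88 (SE 0.30, adjusted p = 0.00133) in wild-type and 1.46 (SE 0.30, adjusted p = 0.00928) in SUMO-KD, and the difference between the responses was -0.42 (95% interval -1.34 to 0.505, adjusted p = 0.933). Its second probe set changed by 1.99 and 1.73, and its dimmest by 0.50 and 0.24. Eif4ebp2, the main 4E-binding protein of neurons, did not pass the test, at -0.0038 (adjusted p = 0.992) in wild-type and -0.31 (adjusted p = 0.317) in SUMO-KD. Its 5 probe sets disagree: the second in brightness changed by 0.63 and 0.41 and the next by -0.21 and -0.25.

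Of the cap-binding complex eIF4F, its helicase and its relatives, 1 of 9 genes was called in both genotypes, where 18.5% and 10.7% of all genes were. This gene was Eif4e2, coding for the cap-binding relative 4EHP. It read 192, 187 and 234 on the wild-type sham arrays, 318, 346 and 345 after ischemia in wild-type, 230.2, 220.5 and 230.4 on the SUMO-KD sham arrays and 433, 318 and 442 after ischemia in SUMO-KD. The ischemia arrays were all above the sham arrays, and the change was 0.65 (SE 0.12, adjusted p = 0.00370) and 0.72 (SE 0.12, adjusted p = 0.00327). A second probe set changed by 0.72 and 0.86, and the 2 dim ones by 0.048 and 0.22 in wild-type. Eif4e itself, the cap-binding subunit, went from 1324 ± 41.6 to 1452 ± 113 in wild-type and from 1305 ± 26.5 to 1397 ± 22.5 in SUMO-KD (mean ± SD, n = 3), changes of 0.13 (adjusted p = 0.307) and 0.10 (adjusted p = 0.524). Eif4e3, a further cap-binding relative, changed by -0.14 (adjusted p = 0.401) and 0.084 (adjusted p = 0.709). Eif4g2, which codes for a scaffold that lacks the eIF4E site, and Eif4h, a helper of the helicase, had changes of 0.0059 and -0.068 in wild-type and -0.19 and -0.11 in SUMO-KD, with adjusted p of at least 0.431.

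Eif4a2, the form of the eIF4A helicase that is abundant in neurons, read 10415, 10009 and 10008 on the wild-type sham arrays, 8636, 8908 and 9252 after ischemia in wild-type, 10449, 9579 and 10403 on the SUMO-KD sham arrays and 10544, 10020 and 10489 after ischemia in SUMO-KD. The wild-type ischemia arrays were lower than all other arrays. The change was -0.18 (adjusted p = 0.118) in wild-type and 0.030 (adjusted p = 0.869) in SUMO-KD, and the difference between the responses 0.21 (adjusted p = 0.824), none past the threshold.

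Start codon recognition had calls in both directions. Eif5, the GTPase activator that releases eIF2 at the start codon, read 3165, 3315 and 3429 on the wild-type sham arrays, 4731, 4402 and 5556 after ischemia in wild-type, 3626, 2994 and 3728 on the SUMO-KD sham arrays and 4569, 5069 and 4922 after ischemia in SUMO-KD. No ischemia array overlapped the sham arrays of its genotype, and the change was 0.56 (SE 0.11, adjusted p = 0.00519) and 0.49 (SE 0.11, adjusted p = 0.0156). Of its 4 probe sets, 3 changed by 0.51 to 0.56 in wild-type and the dimmest by 0.026. In SUMO-KD the same 3 changed by 0.23 to 0.49 and the dimmest by -0.095. The SUMO-KD call of Eif5 was lost in 4 of 24 alternative settings. Eif1a, a scanning factor, rose in wild-type from 646 ± 86.3 to 886 ± 78.1 (0.44 (adjusted p = 0.0359)), with SUMO-KD at 0.20 (adjusted p = 0.406). Its other probe set, marked as shared between transcripts, changed by 0.86 and 0.76. Eif1b, a copy of the scanning factor Eif1, read 4514, 4702 and 4587 on the wild-type sham arrays, 3677, 3692 and 3148 after ischemia in wild-type, 4140, 4177 and 3550.4 on the SUMO-KD sham arrays and 3801, 3229 and 3534 after ischemia in SUMO-KD. It was lower after ischemia in wild-type, with a change of -0.39 (SE 0.10, adjusted p = 0.0193), while in SUMO-KD the groups overlapped (-0.17 (adjusted p = 0.360)) and its sham arrays already lay below those of wild-type (-0.22 (adjusted p = 0.353)).

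**Figure D4:**
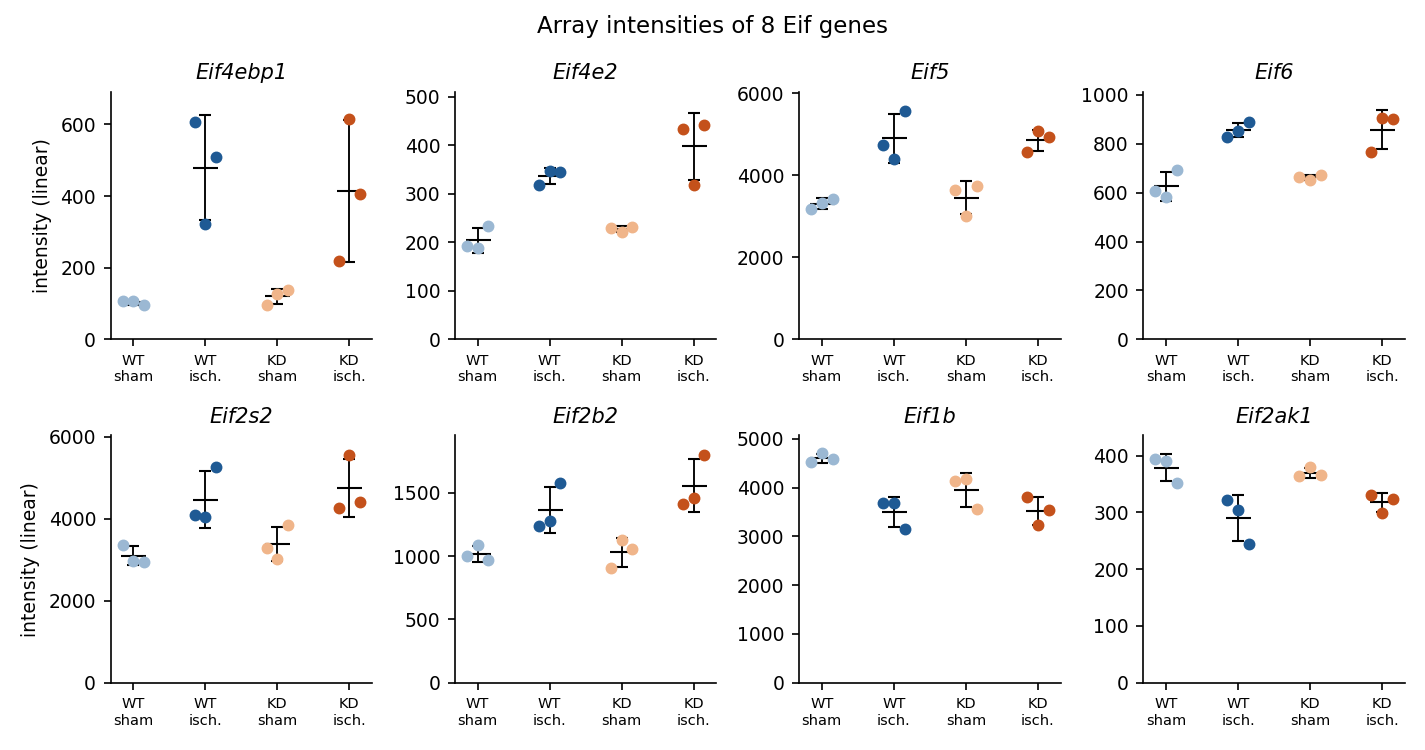
Intensity (linear scale from 0) of the used probe set of 8 Eif genes on each array (points), with the mean and SD of 3 arrays per group (bars); WT is wild-type and KD is SUMO-KD. In Eif4ebp1, Eif4e2, Eif5, Eif6, Eif2s2 and Eif2b2 the ischemia arrays lie above the sham arrays of the same genotype, and Eif1b and Eif2ak1 are lower after ischemia in wild-type.

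In the eIF2 complex, Eif2s2, coding for the beta subunit, rose in both genotypes. It read 3363, 2966 and 2953 on the wild-type sham arrays, 4099, 4031 and 5260.1 after ischemia in wild-type, 3278, 3023 and 3841 on the SUMO-KD sham arrays and 4269, 5553 and 4397 after ischemia in SUMO-KD. The ischemia arrays were clear of the sham arrays, with changes of 0.52 (SE 0.14, adjusted p = 0.0250) and 0.48 (SE 0.14, adjusted p = 0.0496), the latter close to the threshold. All 6 of its probe sets were higher after ischemia, by 0.39 to 1.13 in wild-type and by 0.48 to 0.82 in SUMO-KD. The gamma subunit is coded by Eif2s3x and its Y-linked copy Eif2s3y. Eif2s3x changed by 0.091 (adjusted p = 0.587) and 0.074 (adjusted p = 0.721), and Eif2s3y, read on all 12 arrays at 364 to 551, by 0.27 (adjusted p = 0.164) and 0.028 (adjusted p = 0.931).

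Of the eIF2 kinases, some were higher and 1 was lower after ischemia. Eif2ak4 (GCN2, which senses uncharged tRNA) rose in wild-type from 123 ± 5.15 to 173 ± 24.4 (0.40 (adjusted p = 0.0211)) and was at 0.23 (adjusted p = 0.208) in SUMO-KD. Eif2ak3 (PERK, the kinase of the endoplasmic reticulum and the one tied to reperfusion) read 430.4, 471 and 460.0 on the wild-type sham arrays, 512, 578 and 565 after ischemia in wild-type, 397, 398 and 358 on the SUMO-KD sham arrays and 441, 539.6 and 531 after ischemia in SUMO-KD. Its ischemia arrays were above its sham arrays in both genotypes, and the change was 0.36 (SE 0.096, adjusted p = 0.0351) in SUMO-KD and 0.26 (SE 0.096, adjusted p = 0.0813) in wild-type. Eif2ak1 (HRI, a kinase regulated by heme) fell in wild-type from 379 ± 23.8 to 289.8 ± 40.3, a change of -0.36 (SE 0.10, adjusted p = 0.0283), and was at -0.20 (adjusted p = 0.247) in SUMO-KD. Its second probe set changed by -0.13. Eif2ak2 (PKR, which binds double-stranded RNA) was dim, between 49.5 and 99.6, and changed by 0.34 (adjusted p = 0.0925) and 0.19 (adjusted p = 0.419).

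The exchange factor that phosphorylated eIF2 blocks is eIF2B. Of its 4 measured subunits, only Eif2b2 was called, in both genotypes, where 18.5% and 10.7% of all genes were. It read 999, 1086 and 968 on the wild-type sham arrays, 1239.8, 1273 and 1576 after ischemia in wild-type, 906, 1125 and 1056 on the SUMO-KD sham arrays and 1410, 1460.5 and 1796 after ischemia in SUMO-KD. The groups were clear of each other, and the change was 0.40 (SE 0.13, adjusted p = 0.0467) and 0.58 (SE 0.13, adjusted p = 0.0137). A second probe set changed by 0.41 and 0.92 and the dimmest by -0.00063 and 0.021. The wild-type call was lost in 15 of 24 alternative settings, as was the SUMO-KD call of Eif2s2.

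The scaffold on the small subunit is eIF3. Of its 11 measured subunits, 1 was called in wild-type and none in SUMO-KD, where 18.5% and 10.7% of all genes were. Eif3a, the largest subunit, rose in wild-type from 2763 ± 197 to 3807 ± 299 (0.46 (adjusted p = 0.0194)), with SUMO-KD at 0.12 (adjusted p = 0.610) and a difference between the responses of -0.34 (adjusted p = 0.822). The brightest of the complex, Eif3e, changed by 0.027 and 0.080. Eif6, which keeps free 60S subunits from joining and acts in their assembly, read 606, 581 and 693 on the wild-type sham arrays, 829.7, 854 and 888 after ischemia in wild-type, 662, 651 and 672 on the SUMO-KD sham arrays and 767, 906 and 899.8 after ischemia in SUMO-KD. Its ischemia arrays were all above its sham arrays, with changes of 0.44 (SE 0.093, adjusted p = 0.00745) and 0.35 (SE 0.093, adjusted p = 0.0319). Eif5a, a factor of elongation that carries the amino acid hypusine, changed by -0.026 (adjusted p = 0.907) and 0.16 (adjusted p = 0.397).

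**Figure D5:**
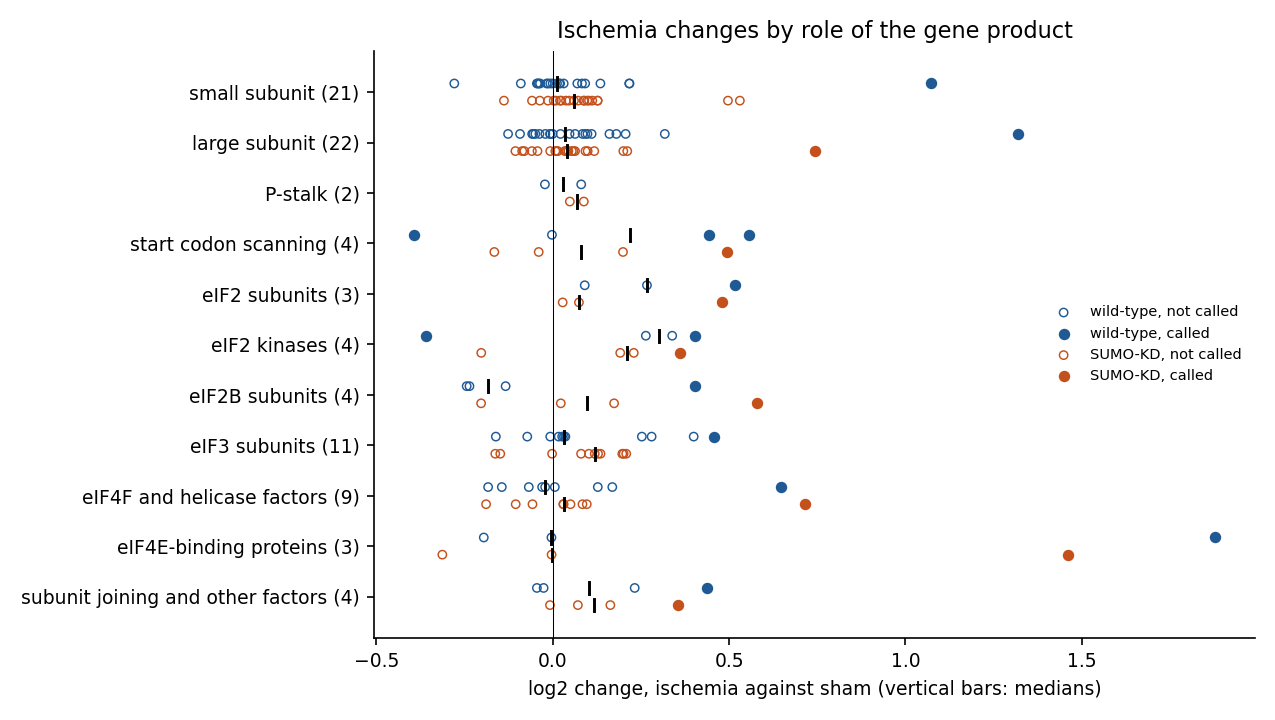
Log2 change with ischemia of each gene (circles; filled where called at adjusted p under 0.05), in rows by the role of its product with the number of genes in brackets, for wild-type (blue) and SUMO-KD (orange); vertical bars are medians. The ribosomal protein rows crowd around 0, and each Eif row holds at least 1 called gene.

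No Eif gene was called between genotypes in sham, after ischemia or in the difference of responses, where 2.10%, 1.56% and 0.0161% of all genes were called. Unadjusted p by limma was under 0.05 for 3 of 42 genes in sham, all lower in SUMO-KD, for 4 after ischemia and for 1 in the difference of responses, where 14.2%, 15.5% and 6.2% of all genes had such a p. In sham the smallest p were those of Eif2b1 (-0.41 (adjusted p = 0.130)), Eif4e3 (-0.29 (adjusted p = 0.241)) and Eif2ak3 (-0.22 (adjusted p = 0.327)). Eif2b1, the alpha subunit of eIF2B, read 429.7, 447 and 431 on the wild-type sham arrays, 361, 329.8 and 408 after ischemia in wild-type, 306, 293 and 368 on the SUMO-KD sham arrays and 307, 409 and 389 after ischemia in SUMO-KD. The wild-type sham arrays were the highest of all 12 arrays, and the difference between responses was 0.41 (95% interval 0.0349 to 0.785, adjusted p = 0.796). After ischemia the smallest p were those of Eif4a2 (0.21 (adjusted p = 0.204)), Eif3m (0.22 (adjusted p = 0.249)) and Eif4g3 (0.19 (adjusted p = 0.254)). The genotype difference had a 95% interval within 0.5 of 0 for 39 of 42 genes in sham and again for 39 after ischemia. The interval for the difference between responses was wider and stayed within 0.5 of 0 for 27. For Eif1a, Eif1b, Eif2ak1, Eif2ak4, Eif3a and Eif2ak3, each called in 1 genotype, the difference between responses did not pass the test, so these data do not show that they respond differently.

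The lists around these genes were chosen with earlier results of these data known. The control of eIF2 phosphorylation was followed with a list of 12 genes, of which 11 were measured. In wild-type 5 were called higher and 2 lower, where 9.59% and 8.88% of all genes were. In SUMO-KD 4 were called higher and none lower (1 lower at an unadjusted p under 0.05), where 6.08% and 4.62% of all genes were. Leaving out single arrays gave 5 higher and 0 to 1 lower in wild-type and 4 to 5 higher in SUMO-KD. Ppp1r15a, coding for GADD34, the stress-induced partner of the eIF2 phosphatase, read 226, 218 and 179.7 on the wild-type sham arrays, 868, 827 and 817 after ischemia in wild-type, 209.5, 179 and 212 on the SUMO-KD sham arrays and 1057, 879.8 and 878 after ischemia in SUMO-KD. Sham and ischemia arrays were far apart in both genotypes, with changes of 1.86 (SE 0.11, adjusted p = 1.37e-06) and 2.06 (SE 0.11, adjusted p = 9.9e-07). Its constitutive relative Ppp1r15b changed by 1.28 (adjusted p = 5.7e-05) and 0.79 (adjusted p = 0.00206). The transcription factor Atf4, translated when eIF2 is phosphorylated, changed by 0.67 (adjusted p = 0.00113) and 0.94 (adjusted p = 0.000182), and its target Ddit3 (CHOP) by 1.32 (adjusted p = 0.000955) and 1.11 (adjusted p = 0.00449).

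In the list of mTOR and MAP kinase control, 3 of 15 measured genes were higher in each genotype, and 2 were lower in wild-type and none in SUMO-KD (1 at an unadjusted p under 0.05). Of all genes, 9.59% were called higher and 8.88% lower in wild-type, and 6.08% and 4.62% in SUMO-KD. The mTOR inhibitors Sesn2 and Ddit4 rose, Sesn2 by 1.56 (adjusted p = 0.00152) and 1.44 (adjusted p = 0.00400) and Ddit4 by 0.67 (adjusted p = 0.00529) and 0.55 (adjusted p = 0.0234). Mknk2, a kinase of eIF4E, rose by 0.54 (adjusted p = 0.00241) and 0.39 (adjusted p = 0.0213), and Tsc1, part of another mTOR inhibitor, changed by -0.48 (adjusted p = 0.0106) and -0.37 (adjusted p = 0.0557). The SUMO-KD count became 1 without replicate 2 of SUMO-KD sham or replicate 3 of SUMO-KD ischemia, and 1 of the lower calls in wild-type was lost without replicate 1 or 3 of wild-type sham or any array of wild-type ischemia.

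Among genes that build ribosomes, Myc and Nop58 had the smallest p in both genotypes. Of 35 measured genes for ribosome biogenesis and RNA polymerase I, 10 were called higher and 1 lower in wild-type, with a median of 0.23, and 6 higher and none lower in SUMO-KD (2 lower at an unadjusted p under 0.05), with a median of 0.062. The shares of all genes were 9.59% higher and 8.88% lower in wild-type and 6.08% higher and 4.62% lower in SUMO-KD. The wild-type count became 6 without wild-type ischemia replicate 1 or 3, the lower call was lost without replicate 1 or 2 of wild-type sham or replicate 1 of wild-type ischemia, and the SUMO-KD count became 2 without replicate 1 or 2 of SUMO-KD sham or replicate 2 or 3 of SUMO-KD ischemia. Myc, the transcription factor that drives ribosome production, read 75.4, 72.3 and 58.9 on the wild-type sham arrays, 321, 320.1 and 331 after ischemia in wild-type, 98.1, 86.2 and 91.9 on the SUMO-KD sham arrays and 351, 292 and 325 after ischemia in SUMO-KD. All ischemia arrays lay far above the sham arrays, with changes of 1.82 (adjusted p = 6.93e-07) and 1.51 (adjusted p = 3.22e-06). Nop58, a core protein of the particles that methylate ribosomal RNA, rose by 1.30 (adjusted p = 0.000275) and 0.99 (adjusted p = 0.00236), and Rrs1, an assembly factor of the large subunit, by 0.91 (adjusted p = 0.000828) and 0.56 (adjusted p = 0.0207). Wdr43, of the small-subunit processome, changed by 0.93 (adjusted p = 0.00730) and 0.65 (adjusted p = 0.0602), and Gnl2, a GTPase of 60S export, by 0.58 (adjusted p = 0.0174) and 0.66 (adjusted p = 0.0142).

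Of 11 elongation and termination genes, Etf1, coding for the release factor eRF1, rose by 0.65 (adjusted p = 0.00797) in wild-type and 0.56 (adjusted p = 0.0271) in SUMO-KD and was the only one called, where 18.5% and 10.7% of all genes were. The SUMO-KD call was lost without any 1 of the SUMO-KD sham arrays or SUMO-KD ischemia replicates 2 and 3. Of 10 genes for poly(A)-binding and cap-linked factors, Pabpc4 rose in wild-type (0.71 (adjusted p = 0.00181); SUMO-KD 0.33 (adjusted p = 0.113)). Paip2, an inhibitor of poly(A)-binding protein, changed by -0.48 (adjusted p = 0.00450) and -0.35 (adjusted p = 0.0358), and Ncbp2, of the nuclear cap-binding complex, by -0.51 (adjusted p = 0.00710) and -0.56 (adjusted p = 0.00650), both lower after ischemia. These are 1 higher and 2 lower calls in wild-type and 2 lower calls in SUMO-KD, where the share of all genes called lower was 8.88% and 4.62%. Of the 2 lower calls in SUMO-KD, 1 was lost without replicate 1 of wild-type sham, any array of SUMO-KD sham or replicate 1 or 2 of SUMO-KD ischemia, and Pabpc4 was joined by 1 more call without wild-type ischemia replicate 1. Of the 6 measured ribosome-associated genes outside the symbol rule, none was called in either genotype by limma, and none had an unadjusted p under 0.05.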

How the data were processed

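Expression was measured on 12 Affymetrix arrays of 22690 probe sets, 3 per group, from total RNA amplified and labelled with biotin, per the labels' protocols. The deposited values were intensities on a linear scale, with nearly equal trimmed means (2% from each end) on all arrays. Partek 6.6 and RMA are listed in the submitters' processing notes. The values do not have the log2 form of RMA, and which step made them is not stated there. Arrays give no read depth, so their number limits the precision.

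Values were transformed to log2(intensity + 32), which understates changes of dim genes. Of the probe sets, 20393 list 1 gene symbol in the platform annotation, 691 several and 1606 none. Each of 12394 genes took its single-symbol probe set with the highest mean. limma 3.58.1 in R 4.3.3 fitted 4 group means to all 12 arrays, and genes were called at a Benjamini-Hochberg adjusted p under 0.05 over all 12394 genes. Adjusted p in the text are from this fit, SE are its standard errors, ± is the SD of 3 arrays, and paired values are given wild-type first. Values of other probe sets of a gene, and of probe sets that list several symbols, come from the same fit over probe sets. The fit was tested on simulated data.

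Named members are those called in any comparison (up to 12 per comparison and class), the 5 brightest and the 5 with the largest mean ischemia response per class, the 3 with the smallest p where fewer than 3 were called, the eIF2 kinases, the eIF4E and 4E-binding protein genes and the pair Eif2s3x and Eif2s3y. From each pathway list up to 4 called genes with the smallest p per genotype are named. The members and lists were chosen with earlier results of these data known. Alternatives to the offset, probe set choice, filter, scaling, replicate block, variance model and weights were tried, and each array was left out in turn. Promoter windows are from RefSeq (GRCm38.p6). No p-value was computed for a list of genes.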

Additional observations from a re-analysis of the deposited data

How the results depend on the processing

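Under the 12 single-array omissions and the other alternatives, none of the called ischemia changes of members turned its direction. Among changes not called, that of Eif3m in wild-type went from 0.017 to -0.44 (adjusted p = 0.0289) with the mean of its probe sets, of which the second is dim. Eif4e2 and Eif4ebp1 in both genotypes, and Eif5, Eif6, Rpl12 and Rps25 in wild-type, kept their call in all 24 settings. The call was lost in 8 settings for Eif2ak3 in SUMO-KD, and in 7 for Eif1a in wild-type and Eif6 and Rpl12 in SUMO-KD. In wild-type it was lost in 6 for Eif2ak4, 5 for Eif2ak1, 4 for Eif3a and 3 for Eif1b and Eif2s2. For Eif2b2 in SUMO-KD it was lost in 2. Eif6, Rpl12 and Rps25 have no second single-symbol probe set, so the settings of probe set choice could not change their values. The brighter probe sets that list Rpl12 or Rps25 with predicted genes were not used in any setting. Ribosomal protein genes called higher in SUMO-KD numbered 1, became 0 with no offset or with only the compared groups fitted and 2 with array weights, and ranged from 0 to 2 with 1 array left out. Eif genes called higher in SUMO-KD numbered 7, became 4 with arrays centred on their median or with only the compared groups fitted, and ranged from 2 to 7 with 1 array left out. Eif genes called higher in wild-type, 9 in the fit reported, ranged from 5 to 9 with 1 array left out and from 6 to 12 under the other settings, where Eif3c, Eif3l and Eif2ak3 were added with a mean intensity filter of 100. Those lower, 2 in the fit reported, became 1 with only the compared groups fitted and 3 with the trend and robust settings, where Eif4a2 was added (-0.18, adjusted p = 0.0311), and ranged from 0 to 2 with 1 array left out. No member was called between genotypes or for the difference of responses in any setting. The cause of these moves was not tested, beyond the smaller number of arrays in the fits that leave some out.

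Centring arrays on their median moved the share of higher calls among all genes from 51.9% to 41.9% in wild-type and from 56.8% to 51.6% in SUMO-KD, and the median of all genes from -0.035 to -0.093 in wild-type. The deviations of samples that share a replicate number had correlations from -0.17 to 0.28 (median 0.058). Other pairs had correlations from -0.36 to 0.34 (median -0.025). With 3 arrays per group, these values cannot tell whether the numbers pair the samples. With the replicate number as a block, 3 ribosomal protein genes were called higher in wild-type, with Rpl22 added (0.32, adjusted p = 0.0335), and 9 Eif genes in wild-type and 6 in SUMO-KD. Alternatives for the pathway lists and the view of probe sets by brightness were chosen after seeing the data. Dim probe sets limit what can be said of Rpl3l, Rpl39l and Eif2ak2.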

Other observations

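Other values stood outside the comparisons above. Probe sets that list a ribosomal protein gene together with other symbols, often predicted pseudogenes, name no gene and were not tested as members. There were 102 of them, and their wild-type change had a median of 0.28 in the 10 with a mean intensity under 100, 0.099 in the 15 from 100 to 1000 and -0.0039 in the 77 of at least 1000. In SUMO-KD the same medians were 0.14, -0.12 and 0.062, and 59 of the 77 bright ones lay above 0, as did 51 of the 67 bright probe sets that list a ribosomal protein gene alone. Of the 2405 genes with a mean intensity of at least 1000, 970 lay above 0 in SUMO-KD.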
